A study of Mus musculus with 3 samples.

Results

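The genes described here were the expressed members of the mouse gene family named Zfp plus a number, which encode zinc finger proteins. A gene was a member where its symbol in the array's annotation was Zfp followed by digits only, leaving out Zfp42 and Zfp57, and where its deposited intensity, a linear measure of probe brightness, was 150 or more on at least 1 of 3 arrays. Each gene was read from probe sets paired with that 1 symbol, and from the brightest of them where there were several. By this rule 139 of 334 measured Zfp genes were members, out of 22180 genes in all. The same intensity threshold was passed by 7853 genes, of which 7714 were not members. The members were thus chosen by name and by measured intensity on these same arrays, so being at 150 or more is no result, and 24 members passed on 1 array only. The 3 members just inside the threshold, judged by their brightest array, were Zfp395 at 152, Zfp873 at 153 and Zfp217 at 153, and the 3 genes just outside it were Zfp628 at 149, Zfp433 at 148 and Zfp81 at 144.

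RNA from 3 pluripotent mouse cultures was measured on Mouse Gene ST 2.0 arrays, with 1 array for each. All 3 derived from the established embryonic stem cell line EB3 and were grown in N2B27, a serum-free medium. Mouse epiblast stem cells (mEpiSCs), a primed state resembling the post-implantation epiblast, had been induced from EB3 embryonic stem cells (mESCs) and received bFGF at 12 ng/ml beside Activin A at 20 ng/ml. The labels do not say how long they were grown. For the Activin+PD culture, EB3 mESCs had spent 64 days in Activin A at 20 ng/ml, a ligand that activates SMAD2/3, and 2 µM PD0325901, an inhibitor of MEK and thereby of ERK signalling. For the 2i culture they had spent 34 days in the same 2 µM PD0325901 and 2 µM CHIR99021, an inhibitor of GSK3. Added factors and culture time differed together between the mESC cultures, so their parts cannot be told apart. No group had replicates, and "higher" and "lower" therefore compare single arrays without a test. In bulk RNA of this kind, fewer cells expressing a gene and less RNA per cell cannot be told apart.

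The tissue tag of all 3 samples read embryonic stem cells, so the culture names were set beside marker genes. The summed intensity of 7 naive mESC markers was 453 in mEpiSC, 8179 in Activin+PD and 7327 in 2i, and that of 5 primed markers was 6259 in mEpiSC, 1376 in Activin+PD and 1391 in 2i. The primed markers did not all differ alike, and their median intensity was 549 in mEpiSC, 225 in Activin+PD and 57.3 in 2i. Otx2 was at 331, 225 and 46.9 in that order, the last not above background, and Fgf5 at 1879, 135 and 48.4, while Zic2 was at 549, 454 and 492. Pou3f1 was at 403, 67.6 and 57.3, and Dnmt3b at 3097, 494 and 746, with 2i above Activin+PD. Of 8 fibroblast markers, 5 were above background on each array, with sums of 533, 466 and 458 in mEpiSC, Activin+PD and 2i. These were Col1a1, Col1a2, Col3a1, Thy1 and Pdgfrb, all at intensities of 120 or less, and Postn, Lum and Dcn were not above background on any array. Their part in the results was not tested. Background was set on each array as the 95th percentile of 1405 olfactory and vomeronasal receptor probe sets, an intensity of 47.5, 45.4 and 48.1 in the same order. Summed 2-cell-like markers, of which 0, 2 and 2 of 5 were above background, were at 155 in mEpiSC, 415 in Activin+PD and 344 in 2i, and their part in the results was not tested.

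Many zinc finger proteins of vertebrates carry tandem fingers that read DNA and a KRAB domain at the other end of the protein. The KRAB domain binds Trim28, which brings the histone methyltransferase Setdb1 and other silencing proteins, and in early embryos and embryonic stem cells these factors keep retroelements and imprinted loci repressed. KRAB zinc finger genes lie in clusters that arose by repeated gene duplication, so that neighbours can be near copies, and a cluster at the distal end of mouse chromosome 4 is known for its part in restraining endogenous retroviruses in mESCs. Other Zfp genes share only the name and encode RNA-binding proteins, ribosome factors or subunits of chromatin complexes.

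The genes that differed most between the cultures included groups with alike promoters, which are printed here. RefSeq (build GRCm38.p6) gave a window from 250 bases before the start to just past it for 113 of the 139 members. The 8 stretches shown next are from members of distal chromosome 4, each at least 2-fold lower in mEpiSC than in either mESC culture. They are printed 5′ to 3′ on the gene's strand and lie within the 250 bases before the start. Capitals mark 2 stretches that all 8 hold.
Zfp980: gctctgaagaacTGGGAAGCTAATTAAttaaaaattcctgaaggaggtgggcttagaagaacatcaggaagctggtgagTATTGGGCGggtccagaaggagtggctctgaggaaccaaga
Zfp600: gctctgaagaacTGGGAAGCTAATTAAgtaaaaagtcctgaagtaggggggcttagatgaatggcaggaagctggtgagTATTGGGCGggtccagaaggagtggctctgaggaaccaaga
Zfp981: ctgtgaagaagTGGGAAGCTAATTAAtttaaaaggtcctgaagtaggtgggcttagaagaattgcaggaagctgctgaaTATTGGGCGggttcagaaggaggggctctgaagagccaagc
Zfp982: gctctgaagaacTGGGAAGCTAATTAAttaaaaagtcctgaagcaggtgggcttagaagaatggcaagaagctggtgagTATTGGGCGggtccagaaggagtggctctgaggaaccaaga
Zfp985: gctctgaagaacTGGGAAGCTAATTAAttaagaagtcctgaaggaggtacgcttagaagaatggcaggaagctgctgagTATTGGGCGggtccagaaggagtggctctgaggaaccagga
Zfp979: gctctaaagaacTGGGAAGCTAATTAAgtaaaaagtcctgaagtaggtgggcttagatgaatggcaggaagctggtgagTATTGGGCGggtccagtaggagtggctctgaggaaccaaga
Zfp534: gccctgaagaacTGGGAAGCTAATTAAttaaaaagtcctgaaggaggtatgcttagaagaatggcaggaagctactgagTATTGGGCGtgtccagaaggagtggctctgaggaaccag
Zfp984: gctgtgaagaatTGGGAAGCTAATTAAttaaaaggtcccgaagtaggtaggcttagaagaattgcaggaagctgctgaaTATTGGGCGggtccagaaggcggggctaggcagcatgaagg
Their positions were Zfp980 chr4:145670544-145670663 on the plus strand, Zfp600 chr4:146156680-146156799 on the plus strand, Zfp981 chr4:146514745-146514864 on the plus strand, Zfp982 chr4:147492254-147492373 on the plus strand, Zfp985 chr4:147553129-147553248 on the plus strand, Zfp979 chr4:147642542-147642661 on the minus strand, Zfp534 chr4:147702632-147702749 on the minus strand, Zfp984 chr4:147809835-147809954 on the minus strand.

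Of 32851 promoter windows in the table, 12 (0.0365%) held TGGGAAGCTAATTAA on either strand and 37 (0.113%) held TATTGGGCG. The second stretch overlaps the letters of a CCAAT box, read on the other strand as ATTGG, and in 7 of the 8 those of a GC box, GGGCGG. On either strand the CCAAT box was in 33.8% of all windows and the GC box in 32.7%. Both stretches were picked after the sequences were seen and describe letters, not binding sites.

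A second group of alike promoters lay on chromosomes 2, 7 and 13. It is shown because 5 of its 8 members were at least 2-fold lower in mEpiSC than in 2i. That share was 15.1% over all expressed Zfp genes and 7.54% over all genes that passed the threshold. The group was thus picked for its values, which say nothing about its promoters. Zfp640, the member with the largest difference, is printed last for comparison. Capitals mark CCAATCA, which contains the CCAAT box.
Zfp345: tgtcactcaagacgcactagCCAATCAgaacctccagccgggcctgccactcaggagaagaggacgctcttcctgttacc
Zfp808: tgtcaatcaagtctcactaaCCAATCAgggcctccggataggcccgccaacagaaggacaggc
Zfp931: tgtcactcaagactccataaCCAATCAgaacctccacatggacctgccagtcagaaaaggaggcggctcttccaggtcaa
Zfp935: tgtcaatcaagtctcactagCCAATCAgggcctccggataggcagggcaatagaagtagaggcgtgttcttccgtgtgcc
Zfp936: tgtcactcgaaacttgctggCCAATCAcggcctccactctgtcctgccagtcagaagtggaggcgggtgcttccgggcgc
Zfp971: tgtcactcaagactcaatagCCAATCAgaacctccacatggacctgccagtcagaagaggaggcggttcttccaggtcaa
Zfp975: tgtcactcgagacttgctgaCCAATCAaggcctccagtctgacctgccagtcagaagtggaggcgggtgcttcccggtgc
Zfp976: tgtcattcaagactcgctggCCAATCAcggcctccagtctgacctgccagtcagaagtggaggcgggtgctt
Zfp640: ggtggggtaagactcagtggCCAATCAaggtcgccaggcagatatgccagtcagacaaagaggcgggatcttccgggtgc
Their positions were Zfp345 chr2:150485098-150485177 on the minus strand, Zfp808 chr13:62129827-62129889 on the plus strand, Zfp931 chr2:178078474-178078553 on the minus strand, Zfp935 chr13:62466828-62466907 on the minus strand, Zfp936 chr7:43177507-43177586 on the plus strand, Zfp971 chr2:178023186-178023265 on the plus strand, Zfp975 chr7:42692771-42692850 on the minus strand, Zfp976 chr7:42642605-42642676 on the minus strand, Zfp640 chr13:66680820-66680899 on the minus strand. CCAATCA on either strand was in 2375 of 32851 windows (7.23%), so it is common among promoters. The aligned part of the Zfp640 promoter against the other 8 was 56 to 77 bases long at 64.3% to 76.6% identity, which fell short of the limit used for alike promoters, 100 aligned bases at 75% identity.

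Most expressed Zfp genes, like most genes that passed the threshold, were at similar levels in all 3 cultures. For 108 of 139 members (77.7%) the highest and lowest array were less than 2-fold apart, beside 82.5% of all genes that passed the threshold. For 84 (60.4%) they were less than 0.5 apart on the log2 scale, beside 59.5% of all genes, so both shares were near those of all genes. Zfp330, which encodes a nucleolar protein, had an intensity of 398 in mEpiSC, 405 in Activin+PD and 411 in 2i. Zfp35 was at 319, 309 and 313 in the same order. The median intensity over members was 219 in mEpiSC, 229 in Activin+PD and 261 in 2i, against 314, 322 and 321 over the other genes that passed the threshold. The highest value was on the mEpiSC array for 51 members, on the Activin+PD array for 26 and on the 2i array for 62. All 3 arrays were at 150 or more for 87 members. Neither count was made over all genes, so neither is read as a trait of Zfp genes.

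The 10 brightest members are named with the caution that brightness also depends on the probes, so these intensities rank nothing between genes. Zfp207, which encodes a spindle assembly factor that binds Bub3, was at 1940 in mEpiSC, 1752 in Activin+PD and 1807 in 2i. Zfp706 was at 1204, 1258 and 1661 in the same order, Zfp960 at 1021, 1065 and 1244, and Zfp106, which encodes an RNA-binding protein, at 1055, 900 and 917. These 4 stayed within 2-fold over the arrays. The same held for Zfp638 and Zfp568, described with their role groups. Zfp266, Zfp980, Zfp992 and Zfp640 completed the 10 and did not stay within 2-fold.

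Between mEpiSC and 2i, lower members outnumbered higher ones. In mEpiSC, 21 members (15.1%) were at least 2-fold lower than in 2i, beside 7.54% of all genes that passed the threshold, and 7 members (5.04%) were at least 2-fold higher, beside 6.47% of all genes. The other 111 were within 2-fold, and 14% of all genes were apart in one direction or the other. The median log2 difference, mEpiSC minus 2i, was -0.13 over members and 0.0011 over all genes. Without the 9 members of distal chromosome 4, 12 of 130 (9.23%) were lower and the median was -0.07.

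The mEpiSC and Activin+PD arrays gave a like picture, but the comparison shares the mEpiSC array with the one before and is not independent of it. In mEpiSC, 20 members (14.4%) were at least 2-fold lower than in Activin+PD, beside 8.02% of all genes, and 4 (2.88%) were at least 2-fold higher, beside 5.17% of all genes (13.2% for both directions together). The median log2 difference was -0.06 over members and 0.015 over all genes. Without the distal chromosome 4 members 11 of 130 (8.46%) were lower, near the 8.02% of all genes, and the median was -0.02. Taking both comparisons, 18 members (12.9%) were at least 2-fold lower in mEpiSC than in both mESC cultures, beside 5.84% of all genes, and 4 (2.88%) were at least 2-fold higher, beside 4.25%.

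The mESC cultures were close to each other. One member, Zfp462, was at least 2-fold higher in Activin+PD than in 2i (0.719%, beside 2.01% of all genes), and 0 were at least 2-fold lower, beside 1.21% of all genes. Over both directions 3.22% of all genes were apart. The median log2 difference, Activin+PD minus 2i, was -0.07 over members and -0.01 over all genes. For 131 of 139 members these cultures were within 0.5 of each other on the log2 scale, a count not made over all genes.

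**Figure D1:**
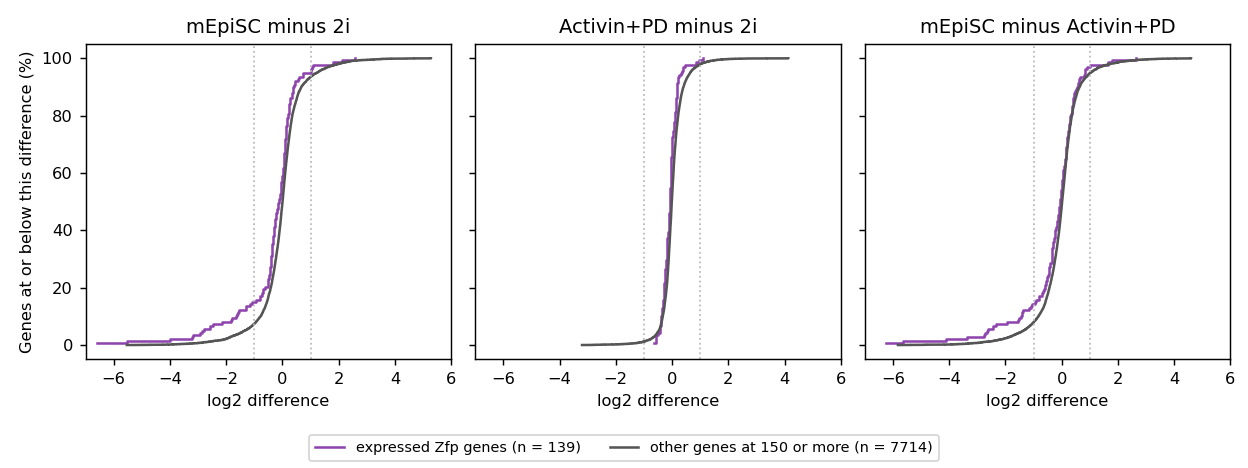
Cumulative share of genes (percent, vertical axis) at or below each log2 difference (horizontal axis) for the 139 expressed Zfp genes and the 7714 other genes at 150 or more, in the 3 comparisons; dotted lines mark 2-fold. The curve of the Zfp genes runs above that of the other genes on the left in the comparisons with mEpiSC, where 21 and 20 members lie at or below -1, and is narrow between Activin+PD and 2i, where 1 member lies past 2-fold.

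The largest difference of any member was that of Zfp640, a zinc finger gene on chromosome 13. Its intensity was 37.7 in mEpiSC, which was not above background, against 2821 in Activin+PD and 3658 in 2i. It was therefore at least 77.0-fold lower in mEpiSC than in 2i, or at least 6.27 on the log2 scale, and at least 5.89 lower than in Activin+PD. Its other 2 probe sets were at 38.1 and 25.2 in mEpiSC, also not above background, and were at least 6.12 and 6.03 lower than in 2i on the log2 scale. A further probe set that the annotation pairs with Zfp640 and other genes was at 40.9 in mEpiSC, not above background, and 1285 in 2i, at least 4.76 lower. Activin+PD and 2i differed by -0.37 on the log2 scale.

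**Figure D2:**
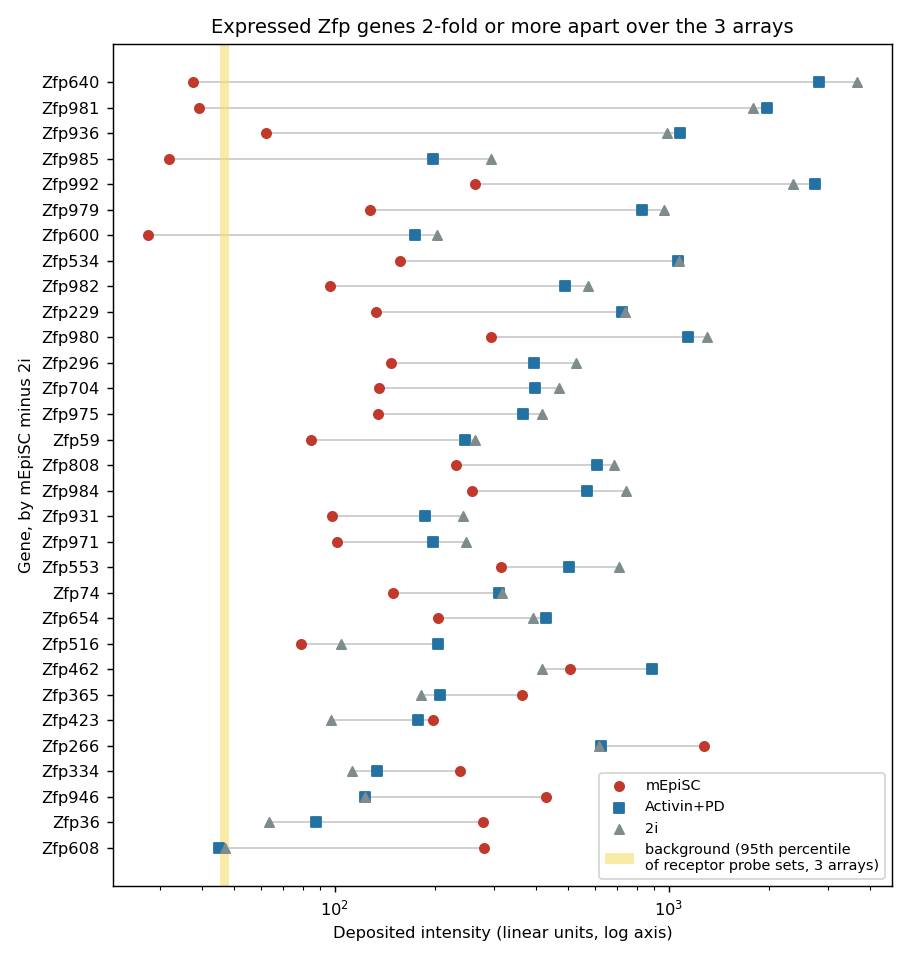
Deposited intensity (linear units on a log axis) of the 31 members with a range of 2-fold or more over the arrays, ordered by the log2 difference mEpiSC minus 2i; circles are mEpiSC, squares Activin+PD and triangles 2i, 1 array each, and the band marks background. In the upper rows the mEpiSC circle lies left of both mESC symbols, down to 27.6 for Zfp600, and in the lowest rows it lies right of them, as for Zfp608 at 279.

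All 9 members in 2 neighbouring clusters of distal chromosome 4 were at least 2-fold lower in mEpiSC than in both mESC cultures. A cluster was a run of 4 or more members with at most 500 kb between neighbours. The first ran from Zfp980 through Zfp600 and Zfp992 to Zfp981, and the second from Zfp982 through Zfp985, Zfp979 and Zfp534 to Zfp984. Zfp981, Zfp985 and Zfp600 were not above background in mEpiSC and have only bounds. The other 6 had log2 differences from 2i between -3.16 and -1.54, and the median of the 9 with bounds in place of those 3 values was -2.63, while the differences between Activin+PD and 2i lay between -0.58 and 0.21. The other 6 members on chromosome 4 were within 2-fold between mEpiSC and 2i. Zinc finger genes of one cluster can be near copies, and whether the probes of these 9 tell the transcripts apart was not tested, so the 9 values may count fewer than 9 separate differences.

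In the first cluster, Zfp981 was at 39.1 in mEpiSC, not above background, against 1965 in Activin+PD and 1790 in 2i. That made it at least 5.24 lower than in 2i on the log2 scale, and at least 5.37 lower than in Activin+PD. Zfp992 was at 263 in mEpiSC, 2730 in Activin+PD and 2355 in 2i, a log2 difference from 2i of -3.16. It kept a clear signal in mEpiSC, unlike Zfp981. Zfp600, which has been reported to bind retrotransposons of the ETn type, was at 27.6 in mEpiSC, not above background, 174 in Activin+PD and 202 in 2i. It was at least 2.09 lower than in 2i. Zfp980 had the smallest difference of this cluster, at 293, 1140 and 1302 in mEpiSC, Activin+PD and 2i (-2.15).

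In the second cluster, mEpiSC was again the lowest. Activin+PD was below 2i for all 5 members, with log2 differences between -0.58 and -0.01, the last for Zfp534. Activin+PD was also below 2i for 95 of 139 expressed Zfp genes and for 4067 of 7853 genes that passed the threshold. Zfp985 was at 31.8 in mEpiSC, not above background, 197 in Activin+PD and 294 in 2i, at least 2.63 lower in mEpiSC than in 2i. Zfp979 was at 127, 832 and 970 in that order (-2.93), but the gene had 2 other probe sets. One of them was at 63.7 in mEpiSC, 261 in Activin+PD and 159 in 2i. Its log2 difference from 2i in mEpiSC was smaller, at -1.32, and its Activin+PD value was above that of 2i. The other was not above background on any array. Zfp534 was at 156 in mEpiSC, 1064 in Activin+PD and 1073 in 2i, and Zfp982 was at 96.4, 488 and 574. Zfp984, at the end of the cluster, had 256 in mEpiSC, 567 in Activin+PD and 746 in 2i, the smallest difference of the 9 (-1.54).

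**Figure D3:**
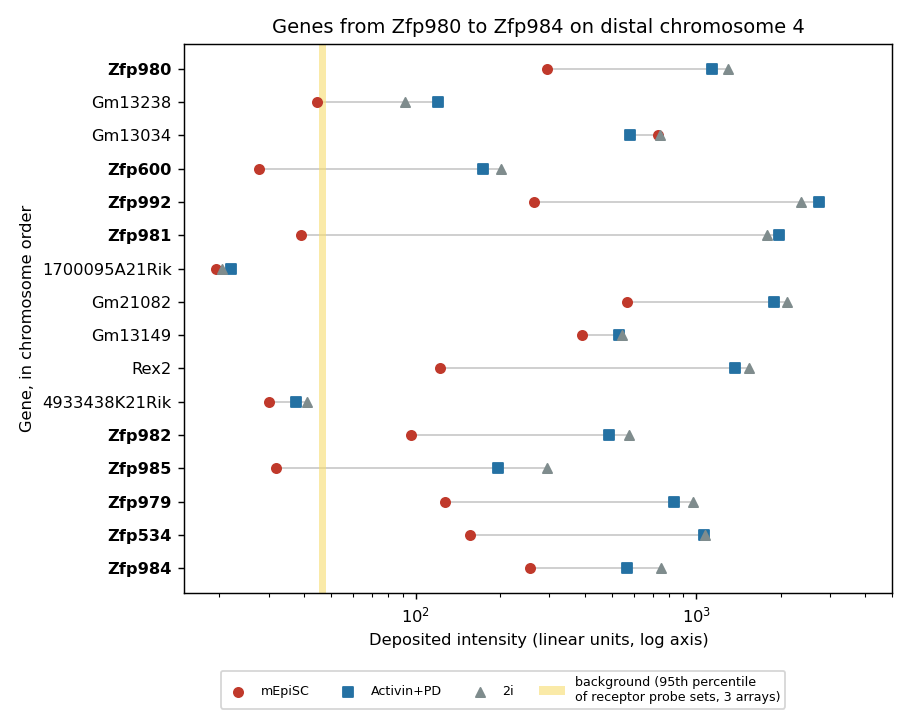
Deposited intensity (linear units on a log axis) of the genes from Zfp980 to Zfp984 in chromosome order, with the expressed Zfp genes in bold; circles are mEpiSC, squares Activin+PD and triangles 2i, 1 array each, and the band marks background. Every bold row has its mEpiSC circle left of both mESC symbols, and the Gm13034 row has its 3 symbols between 581 and 743.

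Genes without a Zfp number that lay between these members were not all lower. Rex2, itself a KRAB zinc finger gene, was at 122 in mEpiSC, 1377 in Activin+PD and 1541 in 2i (-3.66). Gm21082 was at 568, 1895 and 2107 (-1.89), and Gm13238 was at least 0.95 lower in mEpiSC than in 2i. Gm13149 was at 391 in mEpiSC, 531 in Activin+PD and 546 in 2i (-0.48), and Gm13034 was at 732, 581 and 743 (-0.02). Another 2 genes of the interval were not above background on any array. Probe sets that the annotation pairs with several symbols, one of them a member of these clusters, numbered 4. Of these, 3 were at least 2-fold lower in mEpiSC than in 2i, and the log2 differences of all 4 lay between -2.84 and -0.63.

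The promoters printed for distal chromosome 4 were alike in every pair. Among 114 genes with a window (the 113 members and Rex2), 6441 pairs were compared, and 53 pairs reached 100 aligned bases at 75% identity, which joined 17 genes in 2 groups. The first group held Rex2 and 8 of the 9 distal chromosome 4 members, Zfp992 having no window. All 36 of its pairs were alike, at 78.9% to 99.6% identity over 148 to 250 bases. The closest pairs were Rex2 with Zfp600 (99.6%) and Rex2 with Zfp979 (98.8%). Promoters alone were compared, and transcript and protein sequences were not used here.

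**Figure D4:**
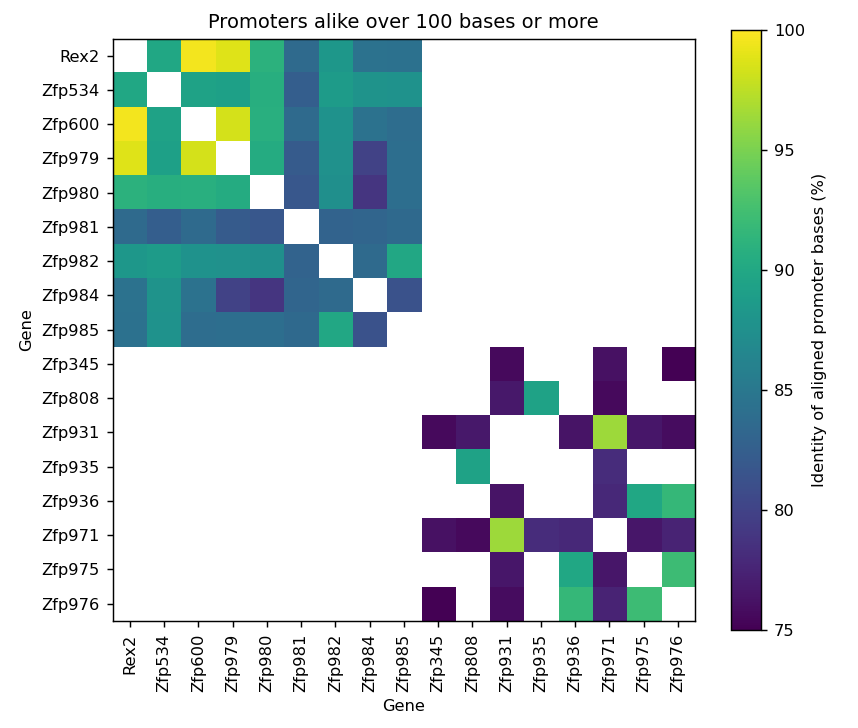
Percent identity of aligned promoter bases (colour) for each pair of the 17 genes that had at least 1 alike partner; white marks pairs under 100 aligned bases or under 75% identity. The upper left block, Rex2 and 8 distal chromosome 4 members, is filled between 78.9% and 99.6%, and the lower right block has 17 of its 28 pairs filled.

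The second promoter group held Zfp345, Zfp808, Zfp931, Zfp935, Zfp936, Zfp971, Zfp975 and Zfp976, with 17 of 28 pairs alike at 75% to 96.4% identity. All 8 had a log2 difference, mEpiSC minus 2i, below 0, between -3.98 and -0.34. The difference was also below 0 for 82 of 139 expressed Zfp genes and for 3920 of 7853 genes that passed the threshold. Zfp936 was at 62.2 in mEpiSC, 1081 in Activin+PD and 985 in 2i (-3.98). It lies on chromosome 7 in a cluster with Zfp975, which was at 134, 367 and 417 (-1.64), Zfp976, at 101, 147 and 154 (-0.61), and Zfp141, at 218, 279 and 261 (-0.26). Zfp808 on chromosome 13 was at 230 in mEpiSC, 611 in Activin+PD and 684 in 2i (-1.57). Zfp931 and Zfp971 on chromosome 2, a pair with 96.4% promoter identity, had values of 97.7, 186 and 242 and of 101, 197 and 247 in the same order, and log2 differences from 2i of -1.31 and -1.29.

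Not every cluster behaved like distal chromosome 4. The chromosome 17 cluster from Zfp948 to Zfp945 had 6 members, of which 1 was lower and 1 higher. Zfp229 was at 133 in mEpiSC, 725 in Activin+PD and 739 in 2i (-2.47), whereas Zfp946 was at 427, 123 and 123 (1.80). The other 4, Zfp948, Zfp942, Zfp760 and Zfp945, had log2 differences from 2i of 0.75, 0.28, 0.13 and 0.12. The chromosome 7 cluster from Zfp606 to Zfp324 had 4 members between -0.16 and 0.12. Another on chromosome 7, from Zfp84 to Zfp146, had 5 members with 1 lower, Zfp74, at 150 in mEpiSC, 311 in Activin+PD and 316 in 2i (-1.08). In all, 28 members lay in the 6 clusters.

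Motifs in the promoter windows are given as counts of letters. A CCAAT box was in 15 of the 19 windows of members at least 2-fold lower in mEpiSC than in 2i and in 48 of the other 94 members' windows, beside 33.8% of all windows. All 8 distal chromosome 4 windows held it, and these are alike in sequence. So did those of the lower members Zfp808, Zfp931, Zfp936, Zfp971 and Zfp975, from the second group of alike promoters, and of Zfp640. The 15 windows are therefore not 15 separate cases. The GC box was in 10 of 19 and 54 of 94. The E-box CACGTG was in 1 of 19 and 9 of 94, beside 6.02% of all windows, and the TATA box TATAAA was in 1 of 19 and 12 of 94, beside 12.4%. All 4 motifs were searched on both strands.

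Among KRAB zinc finger proteins with a known silencing role, 5 of 10 listed were members, and 2 of them, Zfp992 and Zfp600, were at least 2-fold lower in mEpiSC than in 2i, beside 7.54% of all genes. Both belong to distal chromosome 4. Zfp809, which recognises the primer binding site of murine leukaemia viruses, was at 390 in mEpiSC, 532 in Activin+PD and 531 in 2i (-0.45). Zfp568, a repressor of a placental Igf2 promoter, was at 635, 797 and 814 (-0.36). Zfp445, which guards imprinted loci together with Zfp57, was at 580, 489 and 529 (0.13). The 5 had a median log2 difference of -0.45 from 2i, beside 0.0011 over all genes. In Activin+PD, 0 of the 5 were 2-fold apart from 2i.

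The silencing machinery that KRAB proteins recruit was listed separately, and 24 of its 30 listed genes passed the threshold. One was at least 2-fold higher in mEpiSC than in 2i, Pphln1 of the HUSH complex at 1193 in mEpiSC, 248 in Activin+PD and 321 in 2i. One was lower, Zfp57, a KRAB protein of imprinted loci, at 465, 1309 and 1042, beside 6.47% higher and 7.54% lower of all genes. Tasor, also of the HUSH complex, was at 532 in mEpiSC, 1042 in Activin+PD and 963 in 2i (-0.86), and Atf7ip, a partner of Setdb1, was at 818, 1581 and 1546 (-0.92), both just under 2-fold lower. The median log2 difference was -0.11. Trim28 itself was at 3206 in mEpiSC, 3775 in Activin+PD and 3245 in 2i (-0.02), and Setdb1 was at 462, 428 and 607 (-0.40).

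Of zinc finger factors linked to the pluripotency network, 8 of 10 listed were members, and 1 was at least 2-fold lower in mEpiSC than in 2i, beside 7.54% of all genes. This was Zfp296, a partner of Klf4 in mESCs, at 147 in mEpiSC, 396 in Activin+PD and 529 in 2i (-1.84). Zfp462, which restrains differentiation genes through heterochromatin, was at 505 in mEpiSC, 892 in Activin+PD and 417 in 2i. Its log2 difference was 1.10 between Activin+PD and 2i and 0.27 between mEpiSC and 2i, so Activin+PD stood above both. Zfp281, a factor of the exit from the naive state, was at 413, 572 and 519 in mEpiSC, Activin+PD and 2i (-0.33), and Zfp219 was at 296, 374 and 392.3 (-0.41). Zfp706 (-0.46), Zfp207 (0.10), Zfp217 (0.18) and Zfp410 (0.07), the last an activator of the chromatin remodeller gene Chd4, were within 2-fold. The listed Zfp322a passed the threshold and was left out only by its name. It was at 468 in mEpiSC, 218 in Activin+PD and 261 in 2i. In mEpiSC it was thus higher, by 0.84 than in 2i and by 1.10 than in Activin+PD on the log2 scale.

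Of 14 listed partners of chromatin complexes, 9 were members, and 0 were 2-fold apart between mEpiSC and 2i, beside 14% of all genes, with log2 differences between -0.40 and 0.24. Zfp592, Zfp687 and Zfp532, whose proteins join Zmynd8, differed by 0.03, -0.08 and 0.24 from 2i. Zfp638, which brings the HUSH complex to unintegrated viral DNA, was at 864 in mEpiSC, 789 in Activin+PD and 1073 in 2i (-0.31). Between Activin+PD and 2i they ranged from -0.44 to 0.97. The upper end was Zfp516, a partner of corepressors, at 78.9 in mEpiSC, 203 in Activin+PD and 104 in 2i. It was lower in mEpiSC than in Activin+PD by 1.37 on the log2 scale, and its difference between Activin+PD and 2i was 0.97, just under 2-fold. The remaining members Zfp148, Zfp451, Zfp384 and Zfp131 differed by -0.37, -0.18, -0.01 and 0.06 from 2i.

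**Figure D5:**
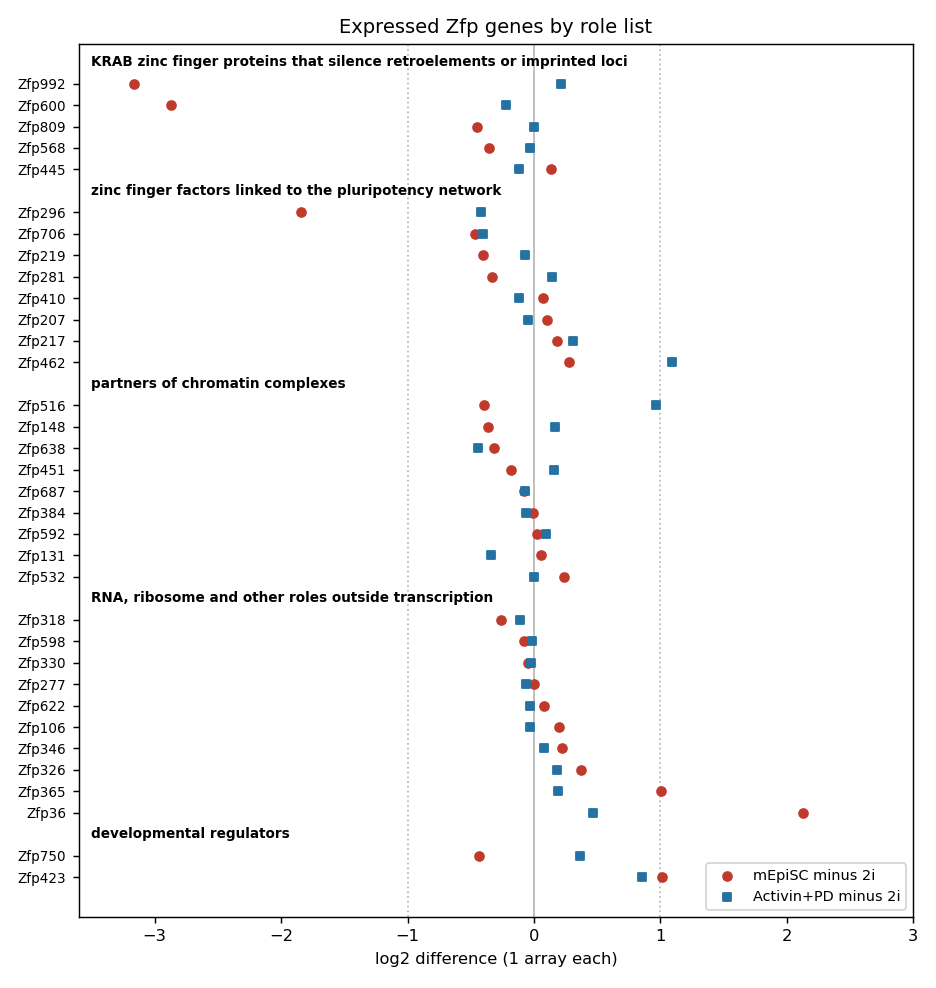
Log2 difference (horizontal axis, 1 array each) of the members of each role list; circles are mEpiSC minus 2i, squares Activin+PD minus 2i, and dotted lines mark 2-fold. Zfp992, Zfp600 and Zfp296 lie left of the lower line and Zfp36, Zfp365 and Zfp423 at or right of the upper one among the circles, while Zfp462 is the 1 square past 2-fold.

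Zinc finger proteins with roles in RNA and the ribosome, or elsewhere outside transcription, numbered 10 of 16 listed, and 2 were at least 2-fold higher in mEpiSC than in 2i, beside 6.47% of all genes. Zfp36 encodes tristetraprolin, which binds AU-rich elements and speeds the decay of mRNAs, and was at 278 in mEpiSC, 87.8 in Activin+PD and 63.6 in 2i (2.13). The gene is known as an early target of growth factor signalling. Zfp365, a partner of the neural scaffold protein Disc1, was at 362, 206 and 181, just at 2-fold (1.004). The ribosome factors were even. Zfp598, a ubiquitin ligase that senses collided ribosomes, was at 421 in mEpiSC, 442 in Activin+PD and 446 in 2i, and Zfp622, a factor of large subunit maturation, was at 505, 469 and 479. The splicing factor Zfp326 was at 309, 272 and 239 (0.37). The other 5 members of the list, Zfp346, Zfp318, Zfp277, Zfp330 and Zfp106, had log2 differences from 2i of 0.22, -0.26, -0.00, -0.04 and 0.20.

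Of 14 listed developmental regulators, 2 were members, beside 139 of 334 measured Zfp genes. Not all the others were under the threshold. Zfp354c, at 179 in mEpiSC, 161 in Activin+PD and 186 in 2i, was left out only by its name. Zfp423, a SMAD partner with roles in fat and brain development, was at 197 in mEpiSC, 177 in Activin+PD and 97.6 in 2i. Its log2 difference from 2i was 1.01 in mEpiSC and 0.86 in Activin+PD, on 1 array each, and the first was 0.82 with 32 added to each intensity. Both cultures differed from 2i in more than Activin A, and its part was not tested. Zfp750, a regulator of epidermal differentiation, was at 102, 177 and 138 in mEpiSC, Activin+PD and 2i (-0.44).

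Higher members in mEpiSC were few and lay apart from each other on the chromosomes. Zfp608 on chromosome 18 was at 279 in mEpiSC against 44.8 in Activin+PD and 46.8 in 2i, both not above background. It was at least 2.54 higher than in 2i on the log2 scale, and at least 2.62 higher than in Activin+PD. Zfp266, a KRAB zinc finger gene known as a barrier to reprogramming of mouse cells, was at 1271 in mEpiSC, 628 in Activin+PD and 618 in 2i (1.04). Zfp334 was at 238, 134 and 112 (1.08). With Zfp36, Zfp946, Zfp365 and Zfp423 these made up the 7. Adding 32 to each intensity left 4 of them past 2-fold, with Zfp334, Zfp365 and Zfp423 under it. Zfp608, Zfp946, Zfp36 and Zfp266 were also at least 2-fold higher than in Activin+PD.

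The remaining members lower in mEpiSC than in 2i or Activin+PD were spread over chromosomes 3, 7 and 16. Zfp704 on chromosome 3 was at 136 in mEpiSC, 397 in Activin+PD and 467 in 2i (-1.78). Zfp59 on chromosome 7 was at 85.0, 245 and 263 (-1.63). Zfp553 on chromosome 7 was at 315 in mEpiSC, 501 in Activin+PD and 707 in 2i (-1.17), with a difference of -0.67 from Activin+PD, so the 3 cultures were stepped. Zfp654 on chromosome 16 was at 203, 428 and 392.1, a log2 difference of -1.08 from Activin+PD and -0.95 from 2i.

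The lowest differences between Activin+PD and 2i were all smaller than 2-fold. Zfp942 had an intensity of 130 in Activin+PD and 201 in 2i (-0.63), with 245 in mEpiSC. For Zfp655 the intensities were 277 in Activin+PD and 416 in 2i (-0.58), and for Zfp930 they were 170 in Activin+PD and 255 in 2i (-0.58). In Zfp942 and Zfp930 the mEpiSC value, 245 and 302, was the highest of the 3 arrays. Among the members lower in mEpiSC, Activin+PD lay below 2i by 0.58 on the log2 scale for Zfp985 and by 0.50 for Zfp553, and above it by 0.21 for Zfp992 and by 0.14 for Zfp936 and Zfp981.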

How the data were processed

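The values were deposited by the authors as 1 table with 1 linear intensity per probe set and array, and per the submitters' processing notes they were made with RMA, which corrects background, quantile-normalises arrays and summarises probes. The series' design text names GeneSpring GX 11.5. Quantile normalisation hides differences in total RNA per cell, and the lowest intensities were alike, at 19.1, 18.9 and 19.0 in mEpiSC, Activin+PD and 2i. Whether a constant had been added before deposit, which would shrink the differences of dim genes, was not tested. The median intensity was 51.9, 50.9 and 51.2 in the same order.

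Of 33793 probe sets, 23521 had 1 gene symbol in the platform annotation, 1814 had several and 8458 had none, and genes were read from the first kind only. For the 10 members with several probe sets the one with the highest mean log2 value was used. Intensities were taken to log2, and differences are the first-named array minus the second. With 1 array per group no test, p-value or standard error was computed, and the number of arrays limits the precision. Genes were counted as apart at 2-fold, with all 7853 genes at 150 or more as background. Where the dimmer array was not above background the text gives a bound, the brighter log2 value minus that background, and such genes entered counts and the members' medians with their measured values, which raising them to background left unchanged except for the median of Activin+PD minus 2i, at -0.07 in both cases.

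The members, role lists and alternatives were chosen with earlier results of these data known. Named genes were the 12 with the largest difference in each direction and comparison among those at least 2-fold apart, the 10 brightest, those next to the threshold, role list members and clusters with 3 or more members apart. Other members named were chosen after their values were seen. Chromosomes and neighbours came from RefSeq, 138 members through Entrez identifiers and Zfp640 by symbol. Promoter windows were aligned locally with Biopython 1.88 on Python 3.11.15 with pandas 2.3.3 and numpy 2.4.6. The steps were tested on simulated data. Protein sequences were not used here, so the proteins most like those of Zfp640 and Zfp981 were not looked for.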

Additional observations from a re-analysis of the deposited data

How the results depend on the processing

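No paired analysis was possible because each group had 1 array, and for the same reason no replicate could be left out. The setting without near-identical proteins was not run, since no protein table was used here. With a threshold of 300 in place of 150, 67 members remained, and the median log2 difference of mEpiSC was -0.31 from 2i and -0.24 from Activin+PD. Of the 67, 3 were at least 2-fold higher in mEpiSC than in 2i and 16 lower. Against Activin+PD, 2 were higher and 16 lower. With a threshold of 100, 1 member was lower in Activin+PD than in 2i. The shares over all genes at these other thresholds were not computed. With 32 added to each intensity, 4 were higher in mEpiSC than in 2i, and with 16 subtracted, 2 were higher in Activin+PD than in 2i. Without the distal chromosome 4 clusters, 12 of 130 members (9.23%) were lower in mEpiSC than in 2i and 11 (8.46%) than in Activin+PD. Without members with an alike promoter the counts were 8 and 9 of 123. Of all genes that passed the threshold, 7.54% were lower than in 2i and 8.02% than in Activin+PD. Neither count of the 123 was above that share. The median of the 123 was -0.05 for mEpiSC minus 2i and 0.010, above 0, for mEpiSC minus Activin+PD. These last 2 alternatives were chosen after seeing the data. Updated symbols, quantile normalization, median centring, means over probe sets, genes with 1 probe set and raised background values left every count within 1.5 times of its value and turned the sign of no median.

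Of 147 differences of single genes under 6 settings, 0 changed sign where 2-fold apart. For several settings this was fixed in advance and is no support. Adding or subtracting a constant cannot change a sign, and median centring shifted all genes alike by far less than 2-fold. Zfp365 and Zfp423 came under 2-fold between mEpiSC and 2i with 32 added (0.89 and 0.82) and with median centring (0.98 and 0.99). Zfp334 did so with 32 added (0.90), and Zfp266 came under 2-fold between mEpiSC and Activin+PD with 32 added (0.98) and with median centring (0.99). Zfp516 passed 2-fold between Activin+PD and 2i with 16 subtracted (1.09). Zfp979 differed by -1.40 from 2i and -1.54 from Activin+PD as a mean over its probe sets. The sizes of the members not above background on an array moved by over 1.5 times. With 16 subtracted, the differences from 2i were -7.39 for Zfp640, -6.26 for Zfp981, -4.14 for Zfp985 and -4.01 for Zfp600. With 32 added they were -5.73, -4.68, -2.35 and -1.98 in the same order, and 1.98 for Zfp608. Zfp600 with its value raised to background differed by -2.09.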

Other observations

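Zfp genes under the intensity threshold numbered 195, of which 162 were above background on at least 1 array and 33 on none. Of the 162, 2 had a 2-fold or greater excess in mEpiSC over 2i and 3 the reverse, by measured value, with a median log2 difference of -0.03. The share over all genes under the threshold was not computed, so these counts are not read as a trait of Zfp genes. Zfp951 was at 22.9 in mEpiSC, not above background, 96.4 in Activin+PD and 93.7 in 2i, at least 0.98 lower than in 2i on the log2 scale. Zfp709 was at 48.1, 92.1 and 122 in the same order (-1.34). Zfp819 was at 43.9 in mEpiSC, not above background, 122 in Activin+PD and 68.3 in 2i, at least 1.36 lower in mEpiSC than in Activin+PD. Zfp703, a regulator of growth in breast epithelium, was the 1 dim gene at least 2-fold lower in Activin+PD than in 2i, at 45.8 in Activin+PD and 103 in 2i (-1.17), with 107 in mEpiSC.

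Probe sets that the annotation pairs with several symbols, at least 1 of them a member, numbered 22, and 20 were above background. Of these, 5 were at least 2-fold lower in mEpiSC than in 2i and 0 were at least 2-fold higher. The 5 include the 3 of distal chromosome 4 and the 1 of Zfp640 already described, so they are no separate support. The share over all probe sets with several symbols was not computed. The lowest difference with both arrays above background was -2.84, and 1 probe set not above background in mEpiSC was at least 4.76 lower.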
